A study of Mus musculus with 2 samples.

Results

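The 44 protein-coding genes whose symbols follow the pattern Col, a number, a and a number (Col1a1, Col4a2 and so on) were taken as the collagen genes, out of 55536 mouse genes and 22028 protein-coding genes in the tables. Each encodes an alpha chain of a collagen. Their levels were measured in hearts of male mice of the strain B6CASTF1/J, the F1 offspring of a C57BL/6J by CAST/EiJ cross, at 4 days of age. There were 2 total RNA libraries, stranded and depleted of ribosomal RNA, each from 300 ng of whole-heart RNA with spike-in RNAs added, and no treated or mutant group. The labels number the animals differently and name them as biological replicates, yet give a single donor record for both. Each library was taken as its own animal, and with a single animal behind both the spread would be technical.

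Alpha chains wind together into the collagen triple helix, which forms only where glycine recurs at the start of each Gly-X-Y triplet. Fibrillar collagens (types I, III, V) assemble into the fibres of the interstitial matrix, in the heart made mainly by fibroblasts. Type IV forms the network of basement membranes around muscle cells and vessels, and type VI forms beaded filaments between both. Fibril-associated collagens decorate fibrils, and the multiplexins Col15a1 and Col18a1 sit in vascular and muscle basement membrane zones.

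The defining repeat of these genes can be read in their coding sequences. Glycine is coded by GGN, where N is any base, so a triple helix appears as a GGN codon at the start of every codon triplet. The first triplets of the longest run are shown for the chains of types I and III, which lead the fibrillar class, and the break that ends the longest run is shown for both abundant type IV chains. Sequences are from the GENCODE M21 transcripts, 5′ to 3′, with GGN codons in capitals.

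Col1a1, codons 168 to 197: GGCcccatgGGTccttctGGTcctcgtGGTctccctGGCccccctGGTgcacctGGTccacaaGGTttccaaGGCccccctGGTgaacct

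Col1a2, codons 97 to 126: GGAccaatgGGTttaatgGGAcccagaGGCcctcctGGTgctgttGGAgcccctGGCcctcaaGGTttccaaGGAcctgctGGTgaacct

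Col3a1, codons 164 to 193: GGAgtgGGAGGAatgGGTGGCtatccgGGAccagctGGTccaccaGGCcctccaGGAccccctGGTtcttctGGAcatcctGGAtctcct

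Col4a1, codons 148 to 177: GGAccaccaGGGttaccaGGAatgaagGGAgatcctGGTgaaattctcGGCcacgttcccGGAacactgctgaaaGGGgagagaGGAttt

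Col4a2, codons 960 to 989: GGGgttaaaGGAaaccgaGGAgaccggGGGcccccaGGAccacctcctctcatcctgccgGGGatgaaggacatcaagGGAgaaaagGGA

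The Col1a1 run went on for 338 triplets, the Col1a2 run for 339 and the Col3a1 run for 344. In type IV the longest runs ended sooner, after 40 triplets in Col4a1 and 66 in Col4a2, and the GGN spacing is lost in the stretches shown. The 6 type IV chains had 22 to 27 separate runs of at least 6 triplets each. All 44 collagen genes held such a run in their longest coding sequence, against 196 of 21518 other protein-coding genes (0.911%). GGN codons made up a median of 24.2% of collagen codons and 6.02% of codons elsewhere. In beaded filament chains, which have large non-helical domains, GGN made up a median of 10.8% of codons, with longest runs of 37 to 87 triplets. Outside the collagens the longest runs belonged to the scavenger receptor Marco with 81 triplets, and the surfactant protein Sftpd and the acetylcholinesterase tail Colq with 59 each.

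**Figure D1:**
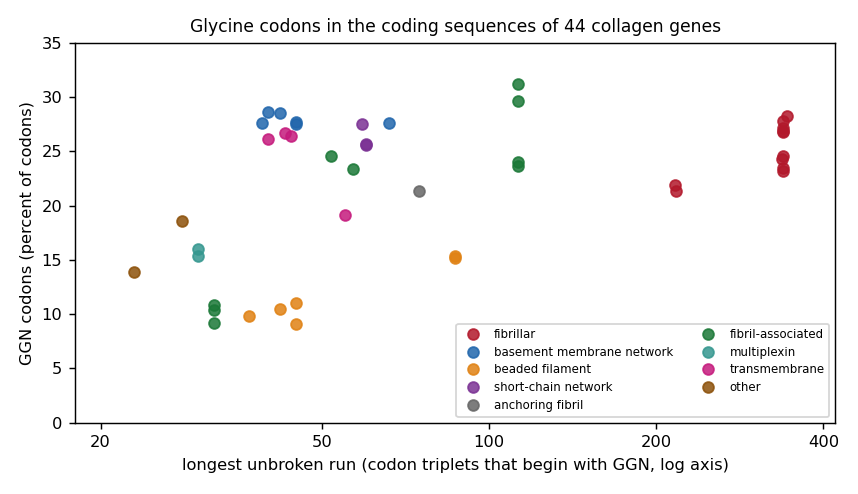
Share of codons that are GGN (percent) against the longest unbroken run of codon triplets that begin with GGN (log axis), 1 point per collagen gene, coloured by structural class. Fibrillar genes stand apart at 216 to 344 triplets, type IV genes lie at 39 to 66 triplets with 27.5% to 28.6% GGN, and beaded filament genes lie at 9.07% to 15.3% GGN.

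Collagen transcripts took 0.915% of the 31512596 mouse-gene expected counts in replicate 1 and 1.10% of the 35744013 in replicate 2. Exact binomial 95% intervals, which cover counting error only, ran from 0.912 to 0.918 and from 1.097 to 1.103. In TPM, a level that accounts for transcript length and library size, they summed to 2254 in replicate 1 and 2647 in replicate 2. A gene was called expressed when each heart gave it a TPM of 1 or more, which 27 of the 44 reached, as did 53.9% of all protein-coding genes. A few genes held nearly all of it: Col3a1, Col4a1, Col1a1, Col4a2 and Col1a2, the top 5, took 77.1% of collagen TPM in replicate 1 and 78.4% in replicate 2, and the top 14 took 97.5% and 97.6%.

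**Figure D2:**
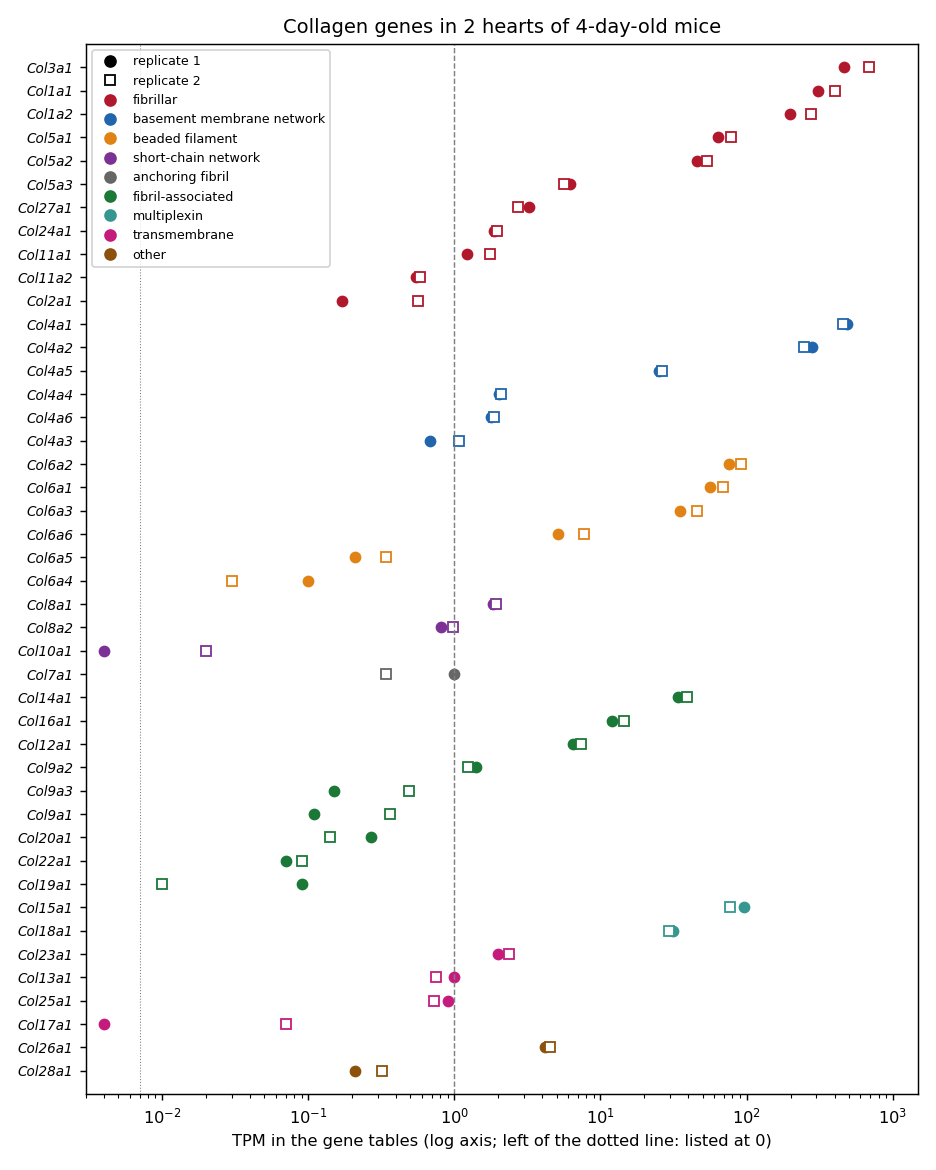
TPM of each collagen gene (log axis) in replicate 1 (filled circles) and replicate 2 (open squares), grouped and coloured by structural class, with a dashed line at a TPM of 1. Col3a1 and Col4a1 lie near the right edge, and Col10a1 and Col17a1 were listed at 0 in replicate 1.

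Among fibrillar genes, Col3a1, the chain of the fine fibres of soft tissue (chr1:45311538-45349706), had a TPM of 467 in replicate 1 and 693 in replicate 2, a mean of 580 ± 160 (SD, n = 2, as for every ± below). It ranked 80 among protein-coding genes by mean TPM. Col1a1 (chr11:94936224-94953042) had 309 and 405 TPM, a mean of 357 ± 68.0. Col1a2 (chr6:4504814-4541544), its partner in type I, had 198 and 276 TPM. All 3 were higher in replicate 2, and their order was the same in both hearts. Type V chains, which help start fibrils and limit their width, came next, with Col5a1 (chr2:27886425-28039514) at 63.5 and 77.8 TPM and Col5a2 (chr1:45374321-45503282) at 45.5 and 53.5. Col5a3, a type V chain of restricted tissues, had 6.22 and 5.59 TPM. The remaining fibrillar genes lay between mean TPM of 0.365 and 2.995. These were Col27a1, Col24a1, Col11a1 and Col11a2, and Col2a1, the main collagen of cartilage, with 16 counts in replicate 1 and 60 in replicate 2.

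Basement membrane chains stood beside the interstitial ones. Col4a1 (chr8:11198423-11312826) had 484 TPM in replicate 1 and 455 in replicate 2, a mean of 469 ± 20.3, and exceeded Col3a1 in replicate 1 alone. That order in replicate 1 turned in the second tables, a further quantification of the same libraries, where Col3a1 had 751 TPM and Col4a1 730, and with main coding transcripts, at 403 and 356 TPM. Col4a2 (chr8:11312805-11449287) had 279.5 and 247 TPM. Both were slightly lower in replicate 2 on the TPM scale. The other 4 chains of type IV, known from the kidney and other specialised membranes, were far lower. Of these, Col4a5 (X) led with 25.1 and 26.3 TPM, while Col4a4 had a mean of 2.06 ± 0.0354, Col4a6 1.83 ± 0.0566 and Col4a3 0.88 ± 0.283. The multiplexin Col15a1 (chr4:47208161-47313167) had 95.6 and 76.7 TPM, higher in replicate 1. Col18a1 (chr10:77052178-77166548), whose C-terminal fragment is endostatin, had 31.6 and 29.6.

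The beaded filament genes Col6a2, Col6a1 and Col6a3, which together form the common type VI trimer, had 75.4 and 91.2 TPM, 56.0 and 68.5 TPM, and 34.9 and 45.7 TPM. All 3 were higher in replicate 2. Of the chains that can replace Col6a3, Col6a6 had 5.09 and 7.69 TPM, Col6a5 0.21 and 0.34, and Col6a4 0.1 and 0.03. Among the fibril-associated genes, Col14a1 led with 33.9 and 39.0 TPM, before Col16a1 with 11.9 and 14.6 and Col12a1 with 6.52 and 7.38. Both network chains of type VIII were low, Col8a1 at a mean of 1.88 ± 0.0707 and Col8a2 at 0.895 ± 0.120. Transmembrane Col23a1 had 2.18 ± 0.283 TPM and the less typical Col26a1 had 4.33 ± 0.262.

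The 17 genes that were not at a TPM of 1 in both hearts were Col11a2, Col2a1, Col4a3, Col6a5, Col6a4, Col8a2, Col10a1, Col7a1, Col9a3, Col9a1, Col20a1, Col22a1, Col19a1, Col13a1, Col25a1, Col17a1 and Col28a1. Near that limit, Col9a2 lay just inside with 1.4 and 1.24 TPM. Just outside were Col8a2 with 0.81 and 0.98, Col13a1 with 0.99 and 0.75, Col25a1 with 0.9 and 0.73 and Col4a3 with 0.68 and 1.08. The anchoring fibril gene Col7a1 had 1.0 and 0.34. Col10a1, the collagen of growth-plate cartilage, had 0 counts in replicate 1 and 2 in replicate 2. Col17a1, the collagen of epithelial hemidesmosomes, had 0 and 8 counts. A count of 0 allows up to 3 counts, or 0.0952 CPM in replicate 1. Cartilage and bone markers were also low, with 2 of 11 expressed, summed TPM of 8.15 and 8.74 in the hearts and Ibsp at 0 in both.

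Pairs of chains were compared within each heart, in which depth and scale are shared. Not every pair assembles together. Col1a1 and Col3a1, Col4a1 and Col4a5, Col12a1 and Col14a1, and Col15a1 and Col18a1 are related chains rather than partners in 1 trimer. The log2 TPM ratio of Col1a1 to Col1a2 was 0.64 in replicate 1 and 0.55 in replicate 2, a mean of 0.60 ± 0.06 or 1.51-fold (1.21-fold in the second tables). Type I protein usually holds a pair of alpha-1 chains for each alpha-2 chain. Col3a1 exceeded Col1a1 by 1.61-fold in the gene tables and 2.09-fold in the second tables. Col5a1 exceeded Col5a2 by 1.42-fold (log2 0.51 ± 0.04). In type VI, the log2 ratio of Col6a1 to Col6a2 was -0.43 in replicate 1 and -0.41 in replicate 2. Col6a3 stood below Col6a1 by -0.63 ± 0.07 on the log2 scale, and by -1.40 where only the main coding transcript of each gene was counted.

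In type IV, Col4a1 exceeded Col4a2 by 1.79-fold (log2 0.79 and 0.88 in the hearts), and by 1.32-fold with main coding transcripts alone. Col4a1 exceeded Col4a5 by 18.2-fold, and Col4a5 exceeded Col4a6 by 13.4-fold, with log2 ratios of 3.74 in both hearts. Col4a3 was below Col4a4 in each heart, with log2 ratios of -1.45 and -0.89, and of -1.32 and -1.35 with main coding transcripts alone. Counts for Col4a3 were few, 128 in replicate 1 and 158 in replicate 2. Col4a3-202, a model of 524 nt, held 0% of Col4a3 TPM in replicate 1 and 38.9% in replicate 2, there on 5.17 counts. Col15a1 exceeded Col18a1 by 2.80-fold in the gene tables and 1.77-fold in the second tables. Over all 15 pairs examined, 8 had the first-named chain higher in both hearts, and no pair changed direction with another pseudocount, the second tables or main coding transcripts. No test of a ratio was made, since flipping signs exactly over 2 hearts cannot give a two-sided p below 0.5.

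Several partner genes are neighbours. Col4a1 and Col4a2 lie head to head on chromosome 8 with first exons that overlap by 22 bases, and Col4a4 and Col4a3 lie head to head on chromosome 1 with 71 bases between them. Col4a6 and Col4a5 lie head to head on the X chromosome 1308 bases apart. The stretches at the starts on chromosomes 8 and 1 are shown because partner chains that start side by side differed in level: Col4a1 exceeded Col4a2 by 1.79-fold and Col4a4 exceeded Col4a3 by 2.25-fold. With main coding transcripts alone Col4a1 exceeded Col4a2 by 1.32-fold, and the ratio of Col4a3 to Col4a4 was 0.396. Both stretches are written on the plus strand of GRCm38, with the letters GGGCGG in capitals, the core of a GC box. The match on chromosome 8 lies within the overlap of the first exons, outside the upstream windows counted below. The stretch on chromosome 1 holds no match. There the gene start of Col4a3 is that of Col4a3-203, a retained-intron model with 3.27 and 1.92 counts. The coding Col4a3-201 starts further on, at 82586976, so the stretch ends before its start.

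Col4a1 and Col4a2, overlap of the first exons, chr8:11312805-11312826: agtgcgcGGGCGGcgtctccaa

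Col4a4 and Col4a3, between the gene starts, chr1:82586850-82586920: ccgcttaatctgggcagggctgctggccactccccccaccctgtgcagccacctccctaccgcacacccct

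GGGCGG was found on either strand in 22 of 38 RefSeq GRCm38.p6 windows of 250 bases upstream of 35 collagen genes (57.9%). The share was 32.7% of 32851 windows of 27025 genes, which were not limited to protein-coding genes. Col1a1, Col5a2 and Col14a1 are among the collagen genes that had no window. Their median GC content was 59.0% against 52.4%, and a window of higher GC is more apt to hold these letters. CCAAT was found in 34.2% of collagen windows and 33.9% of all, and TATAAA in 13.2% and 12.4%. A match describes letters in a window and not a bound site.

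Most collagen signal lay on coding transcripts. Protein-coding transcript types held 99.1% of collagen counts in replicate 1 and 99.4% in replicate 2, against 92.6% and 93.4% over 11840 other expressed protein-coding genes. The rest lay mostly on retained-intron models, at 0.590% and 0.475% of counts. Of all 44 genes, 35 had the same leading transcript in both hearts, and the share over other genes is not given. Of the 27 expressed genes, 26 did, and Col16a1 did not: Col16a1-209, annotated as subject to nonsense-mediated decay, took 20.4% of its TPM in replicate 1 and 0.412% in replicate 2, and the coding Col16a1-201 took 5.36% and 23.8%. In the second tables Col16a1-201 led in both hearts, with 20.7% and 31.7%, and Col26a1 was the gene whose leader differed. The main coding transcript held a median of 89.0% of the gene's TPM. For Col1a1-201 the share was 98.5% ± 0.867, for Col4a2-201 99.2% ± 0.366 and for Col6a1-201 98.9% ± 0.374. Other genes were divided, among them Col14a1 (Col14a1-201 at 50.3% ± 0.187 and Col14a1-203 at 25.9% ± 0.585) and Col12a1 (Col12a1-201 at 47.5% ± 0.642).

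Short fragment models held more of the TPM of some genes than of their counts. Col4a1-203, a model of 545 nt, took 24.9% of Col4a1 TPM in replicate 1 and 26.6% in replicate 2 but 2.26% and 2.45% of its counts. In the second tables its share of TPM was 14.1% and 5.86%. Col6a3-206, a retained-intron model of 646 nt, took 17.9% and 21.7% of TPM (35.1% and 36.8% in the second tables) and 1.62% and 2.07% of counts. Col3a1-205, of 737 nt, took 9.93% ± 2.56 of Col3a1 TPM in the first tables and 34.2% in the second. For Col18a1 the main transcript Col18a1-202 held 89.0% ± 1.67 in the first tables and 58.6% ± 5.45 in the second. The choice of table moved these shares by more than the hearts differed. Col3a1 also contains the miRNA gene Gm47302, which the authors' tables gave 807 and 1171 counts, shared with Col3a1 reads: the sums of both genes were whole, 55342 and 93080. Col6a5 and Col6a6 shared reads in the same way, with sums of 1042 and 1860 counts, so the low Col6a5 values are uncertain.

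How far collagen levels differed between animals of 1 group was asked by setting replicate 2 against replicate 1. Counts were scaled by TMM and the log2 ratio of replicate 2 over replicate 1 was taken for genes that passed the filter on low counts, which 37 of the 44 did. The 7 left out were Col6a4, Col10a1, Col9a3, Col9a1, Col20a1, Col19a1 and Col17a1. Of the 37 genes, 29 were higher in replicate 2 and 8 lower, with a median log2 ratio of 0.25. Over 13566 protein-coding genes that passed the same filter, 52.7% were higher and the median was 0.02. The count of higher genes was 32 with spike-in scaling, 26 with library totals and 27 with TPM ratios, whose median over all genes was itself shifted by -0.13.

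**Figure D3:**
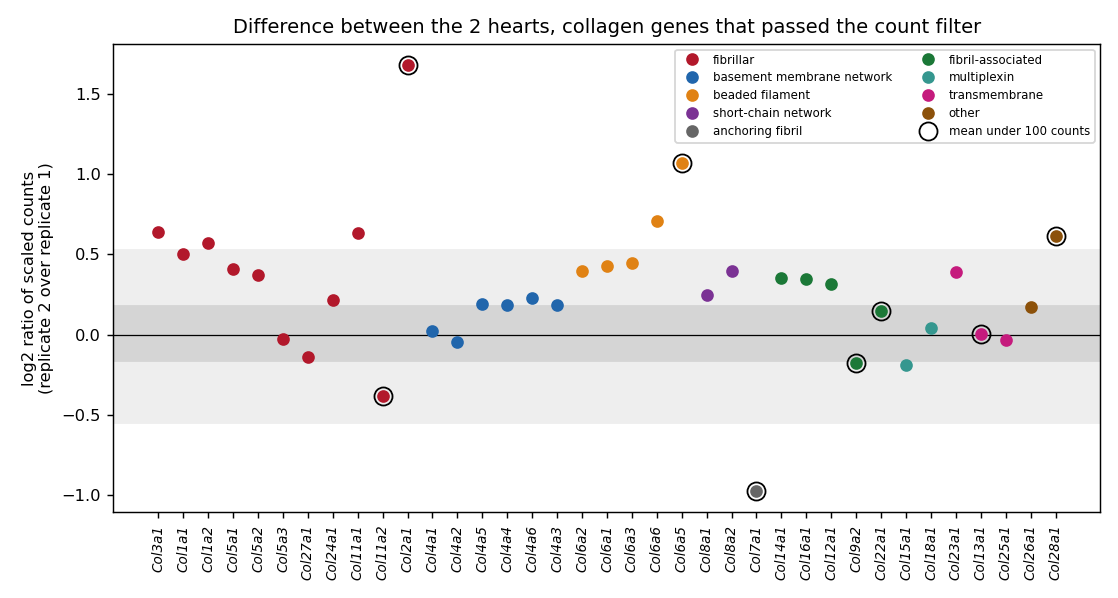
Log2 ratio of scaled counts, replicate 2 over replicate 1, for the 37 collagen genes that passed the filter, coloured by class, with rings around genes under a mean of 100 counts. The dark and pale grey bands hold the middle 50% and 90% of protein-coding genes. Col1a1, Col1a2, Col3a1, Col5a1, Col5a2 and the type VI genes lie above the dark band, as do Col4a3, Col4a4, Col4a5 and Col4a6. Within it lie Col4a1, Col4a2 and Col18a1, and also the fibrillar Col5a3 and Col27a1.

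Class counts stand beside the 52.7% of filtered protein-coding genes that were higher in replicate 2. Of the 11 fibrillar genes 8 were higher in replicate 2 and 3 lower, with a median log2 ratio of 0.41. All 5 beaded filament genes that passed the filter were higher, with a median of 0.45. Under each of 6 scalings the abundant chains of both classes were higher: Col3a1 by a log2 ratio of 0.64, Col1a2 by 0.57, Col1a1 by 0.50, Col5a1 by 0.41, Col5a2 by 0.37, and Col6a1, Col6a2 and Col6a3 by 0.43, 0.40 and 0.45. Col27a1, at -0.14, was lower under all 6, Col5a3 had -0.03, and Col11a2 had -0.38. Fibril-associated Col14a1, Col16a1 and Col12a1 had 0.35, 0.35 and 0.32. Of the type IV genes 5 of 6 were higher, with a median of 0.18 and a range from -0.04 to 0.23. Col4a5, Col4a6, Col4a4 and Col4a3, at 0.19, 0.23, 0.18 and 0.19, were higher under all 6 scalings, whereas Col4a1 at 0.02 and Col4a2 at -0.04 changed sign with the scaling, as did Col18a1 at 0.04. The class ranges overlap, and no difference between classes was tested. Col15a1 was lower, at -0.19, and stayed lower under all 6. The 6 were TMM, DESeq2 size factors, spike-ins, library totals, TPM ratios and TMM on counts of the second tables. The last is another quantification, and only there did Col9a2 (0.115) and Col22a1 (-0.034) change sign. In all, 28 of the 37 kept their sign under the 6 scalings and 9 did not. The share of all filtered genes that kept their sign is not given, so this count is not read as a trait of collagens. The 9 whose sign changed were Col5a3, Col11a2, Col4a1, Col4a2, Col9a2, Col22a1, Col18a1, Col13a1 and Col25a1.

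The gap between the log2 ratios of partner chains varied from pair to pair. The log2 ratios of Col6a3 and Col6a1 differed by 0.02, those of Col6a1 and Col6a2 by 0.03, Col5a1 and Col5a2 by 0.04, Col4a1 and Col4a2 by 0.07 and Col1a1 and Col1a2 by 0.07. Col8a1 and Col8a2 differed by 0.15. Col5a3, at -0.03, lay apart from its type V partner Col5a1, and Col6a6 and Col6a5, at 0.71 and 1.07, lay above Col6a1. Col11a1 and Col11a2 were unlike, at 0.63 and -0.38, with 69 and 57 counts for Col11a2. Whether partner chains are closer than other genes of like abundance was not tested.

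The makeup of the collagen signal was not the same in the hearts. Fibrillar genes held 49.9% of collagen counts in replicate 1 and 58.0% in replicate 2, with exact 95% limits of 49.7 and 50.1, and of 57.9 and 58.2. Type IV held 36.5%, with limits of 36.3 and 36.6, and 29.1%, with limits of 28.9 and 29.2. Beaded filaments held 6.49% and 6.99%, fibril-associated genes 2.25% and 2.27%, and multiplexins 4.55% and 3.33%. These intervals measure counting error in each library, and whether the shift is larger than the spread among hearts cannot be tested with 2.

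**Figure D4:**
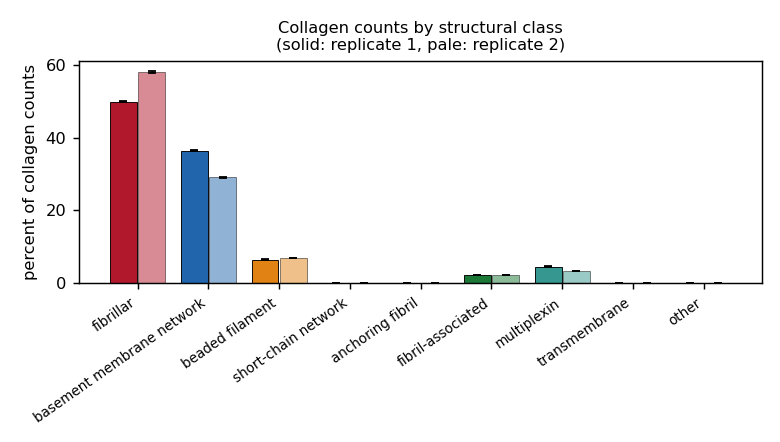
Percent of collagen expected counts held by each structural class in replicate 1 (solid bars) and replicate 2 (pale bars), with exact binomial 95% intervals for counting error. The fibrillar bars rise from 49.9% to 58.0% as the type IV bars go from 36.5% to 29.1%.

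Past 1.5-fold, 6 collagen genes were higher in replicate 2, of 37, where the share was 3.97% over filtered protein-coding genes and 4.22% over all 16271 filtered genes. They were Col3a1, Col11a1, Col6a6, Col2a1, Col6a5 and Col28a1, and the last 3 had a mean under 100 counts. Col3a1 was just inside the threshold at 1.56-fold and Col1a2 just outside at 1.49-fold. Col3a1 fell below it under library totals and TPM ratios (log2 0.57 in each), as did Col11a1 and Col28a1, and the count was then 3 in each case: Col2a1, Col6a6 and Col6a5 under library totals, and Col2a1, Col6a6 and Col4a3 with TPM ratios. Col11a1, with 199 and 336 counts, was 1.55-fold higher, and Col6a6, with 1014 and 1794, was 1.63-fold higher. Col2a1 and Col6a5 also passed 2-fold, where the background was 0.722%. None was past 2-fold lower, where it was 0.862%, though Col7a1 passed that fold under 3 alternatives. Only Col7a1 was past 1.5-fold lower (background 4.29%, or 8.09% over all filtered genes), with 67 and 36 counts and a log2 ratio of -0.97. With a mean of at least 100 counts required, 3 of 29 were higher and 0 lower, against 2.55% in each direction. No p is given, since this is 1 heart against 1.

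Genes that make, process and bind collagen were taken from 6 lists of 65 genes, of which 61 passed the filter. Their median log2 ratio was 0.10, with 43 higher and 18 lower in replicate 2, and 1 was past 1.5-fold higher and 0 lower. Over filtered protein-coding genes 52.7% were higher, 3.97% were past 1.5-fold higher and 4.29% past it lower. The gene past it was Lox, a lysyl oxidase that starts crosslinks, with 9.43 and 13.4 TPM and a log2 ratio of 0.63. Its relatives Loxl1 and Loxl2 had 0.55 and 0.30, while the crosslinking list as a whole had a median of 0.30 with 3 of 5 higher.

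Lists of genes that act in the endoplasmic reticulum and secretory path held members in both directions. The 14 hydroxylation and glycosylation genes had a median of 0.05, led in level by P4hb, the shared subunit of prolyl 4-hydroxylase, at 159 and 153 TPM, then Plod1, Crtap and Colgalt1. Single members ranged from P4ha1 at -0.36 to Colgalt2 at 0.55. The 13 folding and secretion genes had a median of 0.03, with 7 higher and values from -0.43 for Mia2 to 0.42 for Creb3l1. Their leaders were Sparc, a collagen-binding matrix protein, at 557 and 600 TPM, and Serpinh1, the collagen chaperone HSP47, at 244 and 234. The 8 propeptide processing genes were evenly divided, with a median of -0.03, Pcolce at 61.8 and 57.6 TPM and the C-proteinase Bmp1 at 31.6 and 26.3. All 14 and all 13 genes of the first lists passed the filter, and 26 of those 27 were expressed.

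Turnover genes were higher in replicate 2 in 12 of 13 cases, with a median of 0.31, where 52.7% of filtered protein-coding genes were higher. The gelatinase Mmp2 had 51.2 and 64.1 TPM (log2 ratio 0.48), and the inhibitors Timp2 and Timp3 had log2 ratios of 0.47 and 0.51. Mmp15, also among the leaders in level, had 69.2 and 62.7 TPM and a log2 ratio of 0.01. The membrane-type collagenase Mmp14 had 49.6 and 55.1 TPM and the collagen-degrading protease Ctsk 7.31 and 7.15, while Mmp13 had 1 and 3 counts and Mmp8 had 4 and 1. Of the receptors, Itgb1, the shared beta subunit of collagen-binding integrins, had 248 and 282.5 TPM, Ddr1 47.2 and 47.6, Itga1 39.2 and 34.6 and Ddr2 11.5 and 10.2, and the list had a median of 0.08 with 6 of 8 higher.

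Some lists of cell type markers were higher in replicate 2, as the collagens were, and others lay near 0. Their part in the result was not tested. Of filtered protein-coding genes 52.7% were higher in replicate 2. Of 12 fibroblast markers that are no collagens, 11 were higher in replicate 2, with a median log2 ratio of 0.44. Their summed TPM was 771 in replicate 1 and 961 in replicate 2. Dpt and Dcn had 0.79 and 0.58, while Tcf21, a fibroblast transcription factor, had -0.09. All 7 epicardial markers were higher (median 0.27, summed TPM 68.2 and 76.9). Endothelial markers had a median of 0.06 (946 and 860 TPM), mural markers 0.10 (659 and 951 TPM, of which Acta2 held 341 and 631) and cardiomyocyte markers -0.02. Schwann and neuron markers had a median of 0.345 (4 of 6 filtered genes higher), and cartilage and bone markers 0.29 (4 of 4). For macrophage markers it was 0.19 (4 of 6). In bulk tissue, more cells of a type and more RNA per cell cannot be told apart. Signals of other tissues also differed: the erythroid markers summed to 1406 and 5290 TPM, and brown fat Ucp1 had 0 and 396 counts. The 5 lung markers summed to 4.21 and 1.37 TPM, with Ager at 27 counts in both hearts. The 6 skeletal muscle markers summed to 8.62 and 6.96, of which Mybpc2 held 8.05 and 6.41, and Myod1 was at 0 in both.

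**Figure D5:**
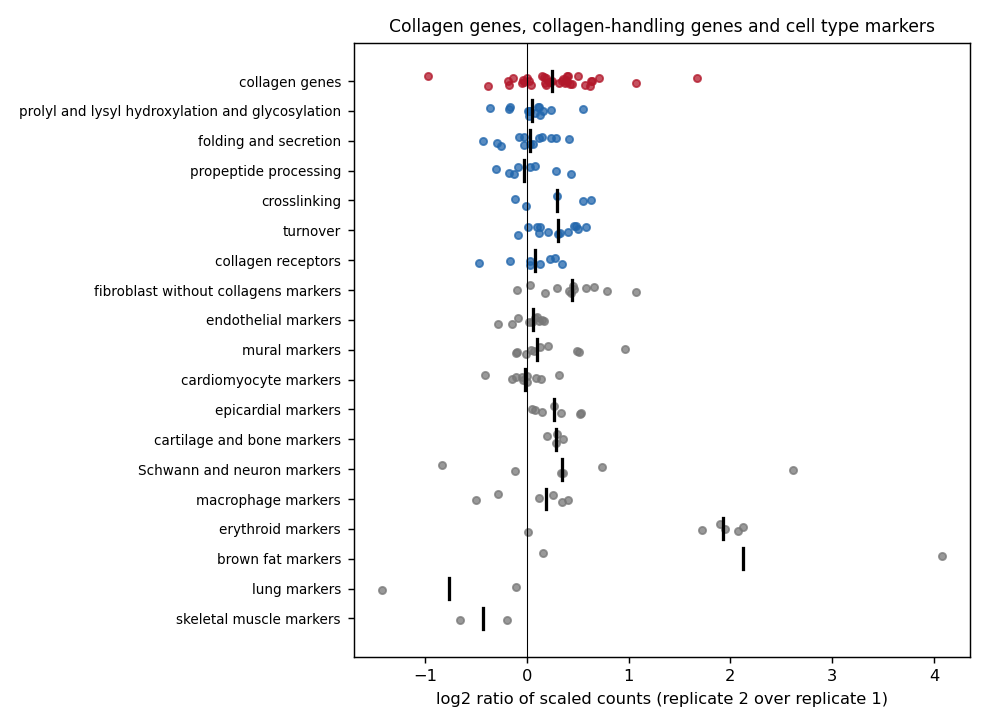
Log2 ratio of scaled counts, replicate 2 over replicate 1, for each filtered gene of the collagen genes (red), the 6 lists of collagen-handling genes (blue) and the 12 cell type marker lists (grey), with black bars at list medians. Collagen genes (median 0.25), turnover genes (0.31) and fibroblast markers (0.44) lie to the right of 0, and hydroxylation, folding and propeptide processing genes (0.05, 0.03 and -0.03) lie around it.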

How the data were processed

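Heart RNA of 4-day-old mice was measured in 2 libraries of 1 group, so no comparison between conditions and no test across samples was made. Both kinds of deposited RSEM-style table, per gene and per transcript, give expected counts and TPM, as the column names in the file headers show. Another deposited table of each library, with kallisto-style column names, gives estimated counts and TPM per transcript (the second tables). Notes deposited beside the files give mm10 and GENCODE M21. Which tool versions and settings made them is not given in the sources used here. TPM as computed by the authors includes spike-in rows, and reads of the F1 were not divided by parental allele. Lengths in nt are as deposited by the authors.

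Spike-ins (96 rows) and 26249 rows that name no mouse gene, with 2 and 4 counts, were left out of library sizes. Shares carry exact binomial 95% intervals, and these and the floor of 3 counts cover counting error only. Expected counts were rounded, filtered (filterByExpr) and scaled (TMM) over the whole table in edgeR 4.0.16 (R 4.3.3), with a prior count of 2, leaving 16271 genes. The step was tested on simulated data with known changes. DESeq2 1.42.0 size factors, spike-ins, library totals and TPM ratios were alternatives, as were the counts of the second tables scaled by TMM. Pair ratios are of TPM with a pseudocount of 0.1. GGN runs were read from the longest coding sequence of each gene, allowing no break, with 6 triplets as the minimum. Other steps used Python 3.11.15, pandas 2.3.3, NumPy 2.4.6 and SciPy 1.17.1.

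The members, structural classes, lists and tests were chosen with earlier results of these data known. Named genes were up to 4 members of highest mean TPM per class, chains of the 15 pairs, members past 1.5-fold, members under a TPM of 1, up to 4 leaders per list, and leading transcripts of members with a mean TPM of at least 10 or that differed between hearts or tables. Not every gene or transcript that meets the rule is printed. Other genes named were chosen after their values were seen. Protein sequences were not used here, and codons stand in for the protein features first planned.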

Additional observations from a re-analysis of the deposited data

How the results depend on the processing

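The median log2 ratio of the collagen genes stayed above 0 under all alternatives run (0.18 to 0.295), and the number expressed ranged from 21 at a TPM of at least 2 to 32 at 0.5, with 30 in the second tables and 28 without either replicate. Levels depended more on the quantification: the collagen share of mouse-gene TPM, 0.247% as a mean of both hearts, was 0.345% in the second tables and 0.556% of nuclear protein-coding TPM. Collagen TPM was higher in the second tables for 30 of 31 genes, and so was that of 12124 of 12631 protein-coding genes. The median was 1.30-fold for collagens and 1.36-fold over those protein-coding genes. Counts past a fold were small and changed with the scaling and the filter. Past 1.5-fold higher, 6 became 3 with TPM ratios, 3 with library totals, 3 at a mean of at least 100 counts and 10 with no filter. Past 1.5-fold lower, 1 became 0 at a mean of at least 100 counts, 3 with no filter and 2 in the second tables. Past 2-fold higher, 2 became 1 with TPM ratios, 0 at a mean of at least 100 counts and 5 with no filter. Past 2-fold lower, 0 became 1 with TPM ratios, 1 with library totals, 1 with no filter and 1 with a prior count of 0.5. Fewer genes are tested under the count limit and more with no filter, and for the other changes the cause was not tested. Of the gene log2 ratios, 316 of 325 values under alternatives moved by less than the spread between hearts, a log2 of 0.19. Several of these alternatives rescale the same counts by a nearly constant small amount, so for them this tally was close to fixed beforehand. It is not read as robustness. Of the pair ratios 64 of 90 values counted as unmoved, and of the gene TPM values 104 of 176, with 72 moved. The pair ratios from main coding transcripts alone were an alternative chosen after seeing the data. No paired analysis was possible because both libraries belong to 1 group.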
